A study of Homo sapiens with 12 samples.

Results

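The genes described here are 7 markers of the activated B cell-like (ABC) subtype of diffuse large B cell lymphoma: ENTPD1, IL16, KCNA3, FUT8, BLNK, PTPN1 and FOXP1. They were found by symbol and gene ID among the array's probe sets that carry 1 gene, and are 7 of 18239 genes so measured. Each was followed through the brightest of its probe sets, by the mean of all arrays. All 7 passed the filter on low values, a log2 level above 4.20 in at least 3 arrays, as did 13120 genes in all. KCNA3 was above that level in 11 of 12 arrays and the other 6 in all 12.

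Expression arrays were run on 3 established human ABC lymphoma lines, OCI-LY3, OCI-HBL1 and OCI-LY10, each under 4 treatments, so every group holds n = 3 arrays, 1 for each line. Control cells carry no stated vehicle. CPI203 cells received 500 nM of that inhibitor of BET bromodomain proteins, which bind acetylated chromatin and help transcription. IRAKi cells received 50 µM of an inhibitor of IRAK kinases, which signal below MYD88, and its chemical name is not stated. Combo cells received both agents at these doses, and the question posed is what the agents do alone and together. The protocol gives 18 h for CPI203 and 6 h for IRAKi. By the sample labels IRAKi cells were taken at 6 h and those of the other 3 groups at 24 h. The agent and the labelled time therefore cannot be told apart wherever IRAKi alone is compared with another group. The replicates are lines with 1 culture shown for each treatment, so p-values speak of the spread between these samples and no more. In RNA from whole cultures, fewer cells of a kind and less RNA per cell cannot be told apart.

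Diffuse large B cell lymphoma is split by gene expression into an ABC form, which resembles B cells on the way to plasma cells and depends on chronic NF-kB signalling, and a germinal centre B cell-like (GCB) form. The markers that tell them apart have unlike jobs. ENTPD1 (CD39) is a surface enzyme that breaks down extracellular ATP and ADP, a step towards adenosine. IL16 is made as a precursor whose released end attracts CD4+ cells, and KCNA3 (Kv1.3) is a voltage-gated potassium channel that helps lymphocytes to sustain calcium entry. FUT8 adds the core fucose to N-linked sugars in the Golgi. BLNK is the adaptor that joins SYK to BTK and PLCG2 below the B cell receptor, PTPN1 (PTP1B) is a phosphatase that acts on JAK-STAT signalling among other targets, and FOXP1 is a forkhead transcription factor of B cells.

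The sequences before the transcription starts are shown for the 4 members that fell with Combo, so that they can be compared. The set of RefSeq starts used here (GRCh38.p14) holds 21 for the 7 members, each with 250 bases before it. The window of the first start in that set is printed for each gene, 5′ to 3′ on the gene's strand. They are chr10:95693935-95694184 on the plus strand for ENTPD1, chr15:81199226-81199475 on the plus strand for IL16, chr1:110674941-110675190 on the minus strand for KCNA3 and chr14:65410342-65410591 on the plus strand for FUT8. IL16 and FUT8 begin further upstream, at bases 81182712 and 65356842 of their chromosomes. Their printed windows therefore do not lie before the first base of the gene. Capitals mark a match to the AP-1 motif TGANTCA.
ENTPD1: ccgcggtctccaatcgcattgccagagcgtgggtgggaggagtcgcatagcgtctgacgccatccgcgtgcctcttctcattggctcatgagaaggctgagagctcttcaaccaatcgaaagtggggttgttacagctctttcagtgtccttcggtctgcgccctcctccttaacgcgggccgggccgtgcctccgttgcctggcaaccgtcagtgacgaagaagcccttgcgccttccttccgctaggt
IL16: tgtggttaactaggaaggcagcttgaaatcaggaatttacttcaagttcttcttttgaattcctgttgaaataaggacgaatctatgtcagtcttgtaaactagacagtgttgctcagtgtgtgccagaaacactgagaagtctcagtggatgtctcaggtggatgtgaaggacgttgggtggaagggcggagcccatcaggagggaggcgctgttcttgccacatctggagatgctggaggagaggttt
KCNA3: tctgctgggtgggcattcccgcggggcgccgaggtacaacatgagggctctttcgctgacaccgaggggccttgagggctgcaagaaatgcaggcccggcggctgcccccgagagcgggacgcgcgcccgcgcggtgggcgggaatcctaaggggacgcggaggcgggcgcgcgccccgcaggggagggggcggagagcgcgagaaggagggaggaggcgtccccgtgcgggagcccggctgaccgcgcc
FUT8: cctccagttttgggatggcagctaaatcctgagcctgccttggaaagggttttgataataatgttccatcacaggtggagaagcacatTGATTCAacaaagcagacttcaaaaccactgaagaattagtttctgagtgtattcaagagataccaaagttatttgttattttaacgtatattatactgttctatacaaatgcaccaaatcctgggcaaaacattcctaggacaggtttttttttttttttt

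These 4 windows differ in make-up, from 36% G and C before FUT8 to 75.2% before KCNA3, where the median of all windows is 58%. The match in the FUT8 window, TGATTCA, lies 162 to 156 bases before the start. Both strands were searched. Of the 21 member windows 3 hold the AP-1 motif (14.3%), against 6.57% of 35116 windows of the same length, and the other two lie before the third start of KCNA3 and the second start of FOXP1. The NF-kB consensus was found in 1 member window (4.76%, against 5.21% of all windows), 100 to 91 bases before the third start of FUT8. The ETS-IRF composite motif (GGAA, any 2 bases, GAAA, in 2.41% of all windows), the interferon-stimulated core (GAAA, any 2 bases, GAAA, in 3.02%) and the E-box CACGTG (6.34%) were in none of the 21. The GC box GGGCGG was in 5 of them (23.8%, against 42.6%), among them the IL16 and KCNA3 windows printed here. It overlapped no AP-1 or NF-kB match. A match of letters is a description and no evidence of a bound site.

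The arrays were alike in scale, with medians between 4.64 and 4.73 on the log2 scale and correlations between 0.923 and 0.991. The lines read as B cells. MS4A1, CD79A, CD79B and PAX5 were above the filter level on every array (6.54 to 12.86), while the 4 T cell markers stayed between 3.58 and 4.41, the 3 monocyte markers between 3.41 and 4.81 and the 2 NK cell markers between 4.08 and 4.78. Markers of plasma cells ran from 3.51 to 11.24 and the 2 epithelial markers, EPCAM and KRT8, from 3.52 to 6.92, and their part in the results was not tested. Among ABC genes IRF4 lay between 10.96 and 13.11. GCB genes were mixed: MME lay near the filter level (4.00 to 4.88), but BCL6 (9.68 to 11.47) and RGS13 (7.40 to 12.49) were well above it. The OCI-LY10 IRAKi array had the highest mean of the nonspecific control probe sets, 4.00 against 3.64 to 3.79 on the others. The signal of the poly-A spike-in probe sets exceeded that of Control by 0.48 ± 0.26 (log2, SD over the 3 lines) in the Combo arrays, 0.31 ± 0.17 in the CPI203 arrays and 0.23 ± 0.04 in the IRAKi arrays. Scaling each array to its spikes moved the median change of all genes to -0.49, -0.30 and -0.23 in the same order. Of the genes then called, 91.7%, 90.6% and 92.3% were lower, against 52%, 47.3% and 31.8% without that scaling. Changes are given relative to the unscaled arrays, whose medians are near zero.

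Combo lowered 4 of the 7 markers, IL16, KCNA3, ENTPD1 and FUT8, to between 15.6% and 48.7% of Control. CPI203 alone lowered ENTPD1 and IL16, and IRAKi alone lowered ENTPD1. BLNK, PTPN1 and FOXP1 did not pass the test against Control in any treatment, and no marker rose. A gene counts as changed at a Benjamini-Hochberg adjusted p under 0.05 in limma's moderated test over all 13120 genes.

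Read against all genes, the 4 of 7 that fell with Combo stand beside 16.7% of genes called lower, 15.4% called higher and 32.1% called in either direction. The 2 of 7 lower with CPI203 stand beside 6.21% called lower, 6.92% called higher and 13.1% in either direction. The 1 of 7 lower with IRAKi stands beside 0.0534% called lower, which is 7 genes, 0.114% called higher and 0.168% in either direction. These shares include genes of low level. A filter at the 60th percentile of all values (log2 5.70) left 9210 genes. Of these 45.3%, 22.7% and 0.717% were called with Combo, CPI203 and IRAKi. Of the 7 markers 5, 3 and 1 were then called, all lower. The markers were chosen with earlier results of these data known, so counts set beside all genes are a description. With each treatment 5 of the 7 were lower than Control in all 3 lines, as were 25.2% of all genes with CPI203, 19.1% with IRAKi and 27.8% with Combo. PTPN1 was the fifth of these with IRAKi, and FOXP1 with CPI203 and Combo. Fits without a line have fewer arrays and call fewer genes: without OCI-LY3, OCI-HBL1 or OCI-LY10 they called 216, 720 and 282 genes with CPI203 (1723 with all lines) and 2072, 3420 and 2232 with Combo (4214). The median change of the 7 was -0.46 with CPI203, -0.54 with IRAKi and -1.04 with Combo, where the medians of all genes tested were 0.008, -0.001 and -0.003. These comparisons share their Control arrays and are therefore not independent of each other.

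**Figure D1:**
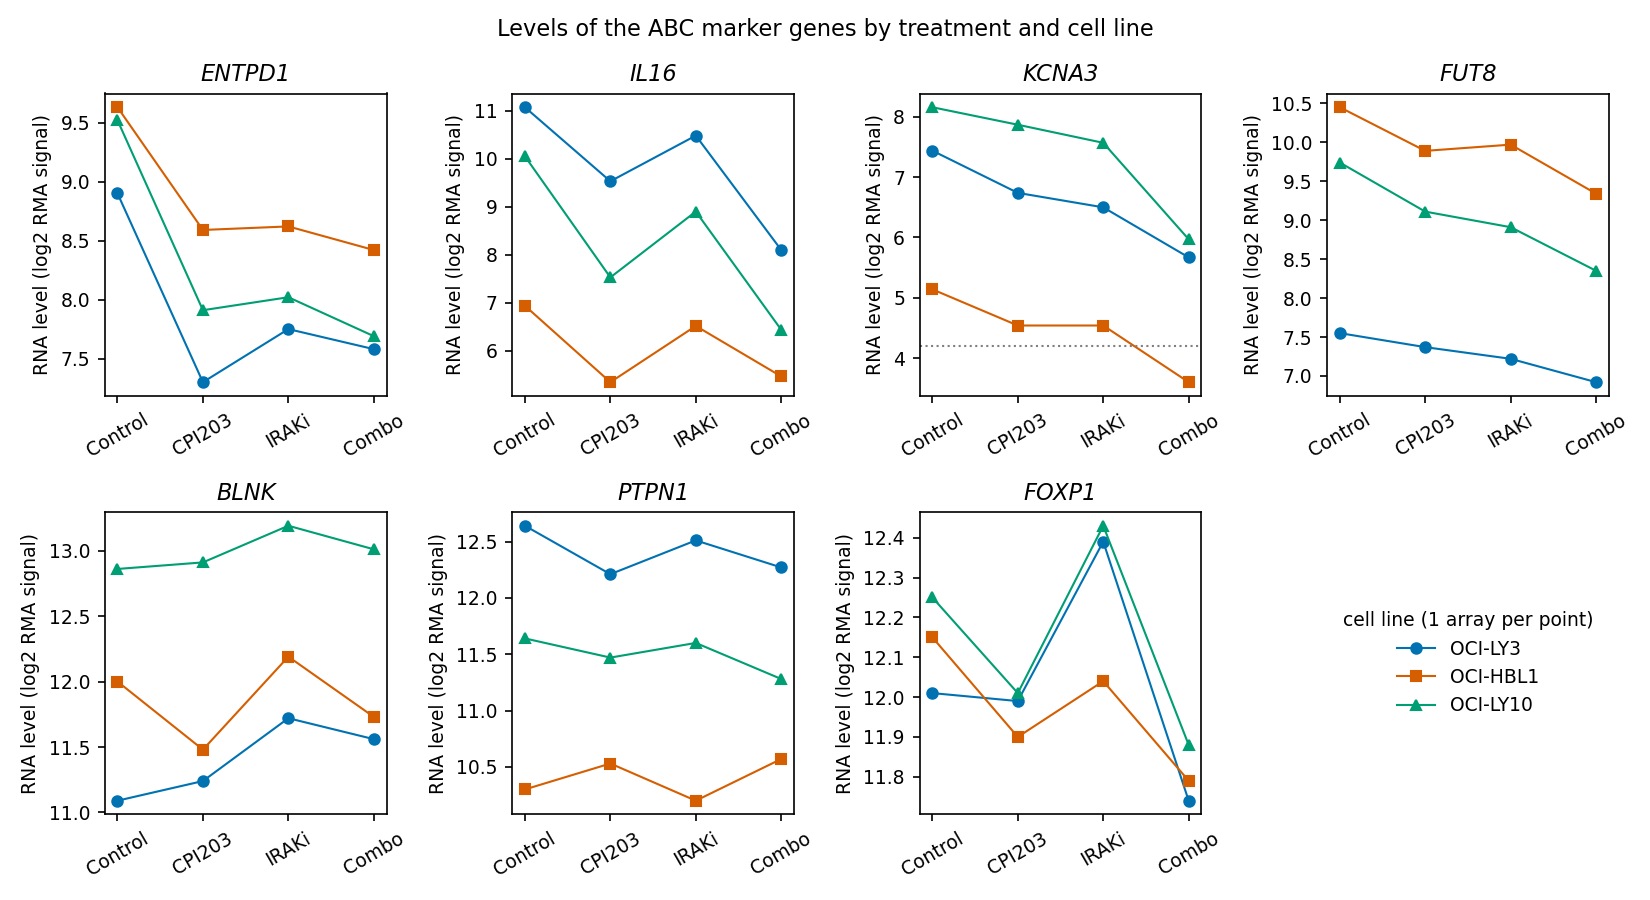
RNA level (log2 RMA signal, vertical axes with a different range for each gene) of the 7 markers under Control, CPI203, IRAKi and Combo, with 1 point for each array and lines joining the arrays of a cell line; the dotted line in the KCNA3 panel is the filter level of 4.20. Control is the highest point of every line for ENTPD1, IL16, KCNA3 and FUT8, while PTPN1 keeps the order OCI-LY3, OCI-LY10, OCI-HBL1 under every treatment.

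**Figure D2:**
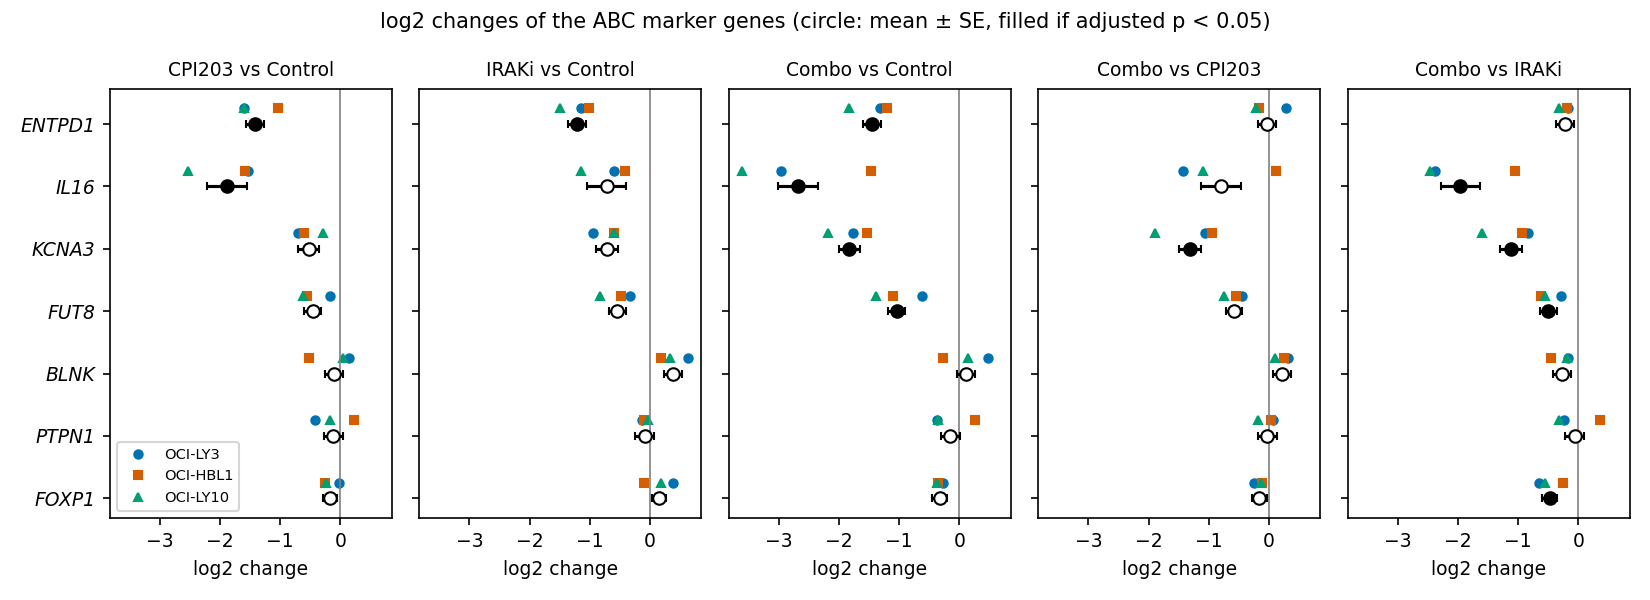
Log2 changes of the 7 markers in 5 comparisons, with coloured points for each cell line (1 array against 1 array) and circles for the mean with its moderated SE, filled where adjusted p is under 0.05. The IL16 mean with Combo is the lowest in the plot at -2.68, and its OCI-HBL1 point (-1.47) lies to the right of those of the other lines.

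ENTPD1 was the one marker that fell with each agent, and Combo did not pass against either agent alone. The Control arrays of OCI-LY3, OCI-HBL1 and OCI-LY10 read 8.90, 9.63 and 9.52 (log2 levels throughout). With CPI203 it read 7.30, 8.59 and 7.91 in the same order, and with IRAKi 7.75, 8.62 and 8.02. With Combo it read 7.58, 8.42 and 7.69. All 9 treated arrays lay below all 3 Control arrays, and the 3 treated groups overlapped one another. The change was -1.42 ± 0.15 (SE) with CPI203, 37.4% of Control (adjusted p = 0.0013). It was -1.22 ± 0.15 with IRAKi, 42.9% of Control (adjusted p = 0.029), and -1.45 ± 0.15 with Combo, 36.5% of Control (adjusted p = 2.1e-04). All 3 lines moved down in each of the 3 comparisons.

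The drop of ENTPD1 with IRAKi was among the few that IRAKi alone gave, and 0.114% of genes had a change as low or lower. Without OCI-LY3, OCI-HBL1 or OCI-LY10 the adjusted p was 0.32, 0.17 and 0.33, and without only the OCI-LY10 IRAKi array, the one with the high nonspecific signal, it was 0.096. The change stayed between -1.32 and -1.08. In those 4 fits 0 of 13120 genes were called with limma for IRAKi against Control, and 1227 to 1791 had an unadjusted p under 0.05, so the lost call says nothing particular to ENTPD1. Combo differed from CPI203 by -0.04 (95% interval -0.38 to 0.30, adjusted p = 0.93) and from IRAKi by -0.23 (-0.57 to 0.10, adjusted p = 0.32). CPI203 and IRAKi differed by -0.20 (-0.54 to 0.14, adjusted p = 0.49). The departure from adding the changes of both agents on the log2 scale, Combo minus CPI203 minus IRAKi plus Control, was 1.18 ± 0.21 for ENTPD1 (1.42, 0.85 and 1.28 by line). A positive value means that Combo lowered the gene by less than the sum of the parts. It lay at or above that of 99.6% of genes, with an unadjusted p of 2.8e-04, but did not pass adjustment (adjusted p = 0.44), where 1 gene in all did (0.00762%) and 1085 had an unadjusted p under 0.05. None of the 7 markers passed for this interaction term. The term includes IRAKi alone, so the agent and the labelled time cannot be told apart in it either.

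IL16 had the deepest drop with Combo, and its OCI-HBL1 cells started far lower than the others. Control levels were 11.07, 6.94 and 10.05, with the lines in the same order as for ENTPD1. CPI203 gave 9.53, 5.35 and 7.53, and IRAKi gave 10.48, 6.52 and 8.90. Combo gave 8.10, 5.47 and 6.44. Across lines the groups overlap, but within each line Control was highest and IRAKi second. The lowest was Combo in OCI-LY3 and OCI-LY10 and CPI203 in OCI-HBL1.

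The change of IL16 was -1.88 ± 0.33 with CPI203 (27.1% of Control, adjusted p = 0.0085) and -2.68 ± 0.33 with Combo (15.6% of Control, adjusted p = 4.4e-04). Only 0.114% of genes had a change with Combo as low or lower. With IRAKi the value was -0.72 ± 0.33 (adjusted p = 0.35). Combo was below IRAKi by -1.96 ± 0.33 (adjusted p = 0.0044), while Combo against CPI203, -0.80 ± 0.33, did not pass (adjusted p = 0.21) and had lines on both sides of zero, at -1.43, 0.12 and -1.09. CPI203 against IRAKi was -1.16 ± 0.33 (adjusted p = 0.076). Leaving out OCI-LY3 (adjusted p = 0.08) or OCI-LY10 (0.084) ended the CPI203 call, and leaving out OCI-LY3 (0.078) ended that of Combo against IRAKi.

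KCNA3 was the marker called lower in Combo than in each agent alone. Its Control arrays read 7.44 (OCI-LY3), 5.14 (OCI-HBL1) and 8.16 (OCI-LY10), and the others follow in that order. The CPI203 arrays read 6.74, 4.54 and 7.87, and the IRAKi arrays 6.50, 4.54 and 7.57. The Combo arrays read 5.67, 3.60 and 5.97. In every line Control was highest and Combo lowest, though across lines the groups overlap, and the OCI-HBL1 Combo value lies below the filter level of 4.20, so its size there is limited by the low signal.

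The Combo change of KCNA3 was -1.83 ± 0.18, 28% of Control (adjusted p = 1.5e-04), at -1.77, -1.54 and -2.19 in the 3 lines. Neither agent alone passed, at -0.53 ± 0.18 with CPI203 (adjusted p = 0.08) and -0.71 ± 0.18 with IRAKi (adjusted p = 0.12). Combo was below CPI203 by -1.31 ± 0.18 (adjusted p = 0.0095), which 0.13% of genes matched or passed, and below IRAKi by -1.12 ± 0.18 (adjusted p = 0.0033). KCNA3 was the 1 marker of 7 called for Combo against CPI203, where 2.71% of all genes were called lower. That call was lost without any 1 of the lines, with adjusted p of 0.12, 0.071 and 0.096 on leaving out OCI-LY3, OCI-HBL1 or OCI-LY10. The changes were then -1.42, -1.49 and -1.01, and these smaller fits called 0, 3 and 0 of all genes for that comparison with limma, with 1805, 2406 and 1853 at an unadjusted p under 0.05. The interaction term was -0.60 ± 0.25 (adjusted p = 0.58), with -1.31 in OCI-LY10 and -0.13 and -0.34 in OCI-LY3 and OCI-HBL1.

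FUT8 fell with Combo in every line, by less than the other 3. Control gave 7.55, 10.45 and 9.74 (the order of lines as before). CPI203 gave 7.37, 9.89 and 9.11 and IRAKi 7.22, 9.97 and 8.91. Combo gave 6.92, 9.34 and 8.35. Control was highest and Combo lowest within each line, and the lines themselves lay further apart than the treatments.

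The Combo change of FUT8 was -1.04 ± 0.14, 48.7% of Control (adjusted p = 7.0e-04), at -0.62, -1.11 and -1.39 in the 3 lines. CPI203 (-0.46 ± 0.14, adjusted p = 0.064) and IRAKi (-0.54 ± 0.14, adjusted p = 0.14) each missed the threshold. Combo against CPI203 was -0.58 ± 0.14 (adjusted p = 0.051) and Combo against IRAKi -0.50 ± 0.14 (adjusted p = 0.04). The last of these was lost without OCI-LY3 (0.083), OCI-HBL1 (0.21) or OCI-LY10 (0.16) and in 9 of 17 alternatives in all. The CPI203 change passed in 5 of 17 alternatives. The interaction term was -0.04 ± 0.20 (95% interval -0.49 to 0.42), so no departure from the sum of the changes of the agents was detected. The interval is wide beside the Combo change of -1.04 and does not show that the changes add.

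BLNK and PTPN1, the signalling proteins among the markers, did not pass against Control with any treatment. BLNK read 11.09, 12 and 12.86 in Control (OCI-LY3, OCI-HBL1 and OCI-LY10), 11.24, 11.48 and 12.91 with CPI203, 11.72, 12.19 and 13.19 with IRAKi and 11.56, 11.73 and 13.01 with Combo. IRAKi gave the highest value in each line. Against Control the values were -0.11 ± 0.15 with CPI203 (adjusted p = 0.68) and 0.11 ± 0.15 with Combo (95% interval -0.22 to 0.45, adjusted p = 0.61). With IRAKi the value was 0.38 ± 0.15 (95% interval 0.05 to 0.72, adjusted p = 0.27). That interval lies above zero but is not adjusted for the number of genes. The Combo value turned to -0.37 when arrays were scaled to their poly-A spikes and to -0.06 without OCI-LY3.

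PTPN1 read 12.64, 10.30 and 11.64 in Control (OCI-LY3, OCI-HBL1 and OCI-LY10) and 12.21, 10.53 and 11.47 with CPI203. It read 12.51, 10.20 and 11.60 with IRAKi and 12.27, 10.57 and 11.28 with Combo. CPI203 and Combo were above Control in OCI-HBL1 and below it in the other two. The mean changes were -0.12 ± 0.16 with CPI203 (adjusted p = 0.67), -0.09 ± 0.16 with IRAKi (adjusted p = 0.85) and -0.15 ± 0.16 with Combo (95% interval -0.51 to 0.21, adjusted p = 0.52). With scaling to the poly-A spikes the Combo value was -0.64 and passed (adjusted p = 0.032).

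FOXP1, on the probe set used, was the marker most alike across lines. Control arrays read 12.01, 12.15 and 12.25, the lines ordered as for PTPN1. CPI203 arrays read 11.99, 11.90 and 12.01 and IRAKi arrays 12.39, 12.04 and 12.43. Combo arrays read 11.74, 11.79 and 11.88, and all 3 lay below the other 9. The Combo change was nevertheless small, -0.33 ± 0.12 (79.5% of Control), and missed the threshold (adjusted p = 0.056), passing in 7 of 17 alternatives, such as the mean of all its probe sets (-0.49, adjusted p = 0.0061). CPI203 gave -0.17 ± 0.12 (adjusted p = 0.39) and IRAKi 0.15 ± 0.12 (adjusted p = 0.58).

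Combo against IRAKi was the one comparison that FOXP1 passed, at -0.48 ± 0.12 (adjusted p = 0.019), with -0.65, -0.25 and -0.55 in the 3 lines. It was lost without OCI-LY3 (0.18), without OCI-LY10 (0.17) and without the OCI-LY10 IRAKi array (0.072). With IL16, KCNA3 and FUT8 it makes 4 of 7 markers lower in Combo than in IRAKi, where 10.5% of all genes were called lower. CPI203 against IRAKi called 0 of the 7, with 5.74% of all genes called, and 2934 genes at an unadjusted p under 0.05. IL16, FOXP1 and BLNK were the markers with an unadjusted p under 0.05 there, at 0.0063, 0.021 and 0.0085.

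Probe sets of a gene give a check on the one used. All 4 probe sets of ENTPD1 were called lower with CPI203 and with Combo, and 2 of 4 with IRAKi. The dimmest of the 4, above the filter level on 5 arrays, was also called lower in Combo than in IRAKi (-0.88), and read -0.54 in Combo against CPI203, not called. IL16 has 8 probe sets, of which 7 passed the filter and all 7 were lower with CPI203 and Combo. Of these 4 were called with CPI203. With Combo 6 were called, between -2.68 and -1.09, and the seventh read -0.48. Both KCNA3 probe sets (-1.83 and -1.27) and both FUT8 probe sets (-1.04 and -0.95) were called with Combo. For Combo against CPI203 only 1 of the 2 KCNA3 probe sets was called, at -1.31, and the other read -0.83. The same holds for Combo against IRAKi, at -1.12 and -0.59.

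FOXP1 shows the widest choice. All 12 of its own probe sets were lower with Combo, between -0.89 and -0.28, and 7 of them were called, but the one with the highest level, used here, was not. Against IRAKi 10 of the 12 were called. With IRAKi alone 4 were lower and 8 higher than Control, and none was called. Single probe sets of 1 gene share its RNA and are no replicates. PTPN1 had none of 2 called and BLNK has 1 probe set.

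**Figure D3:**
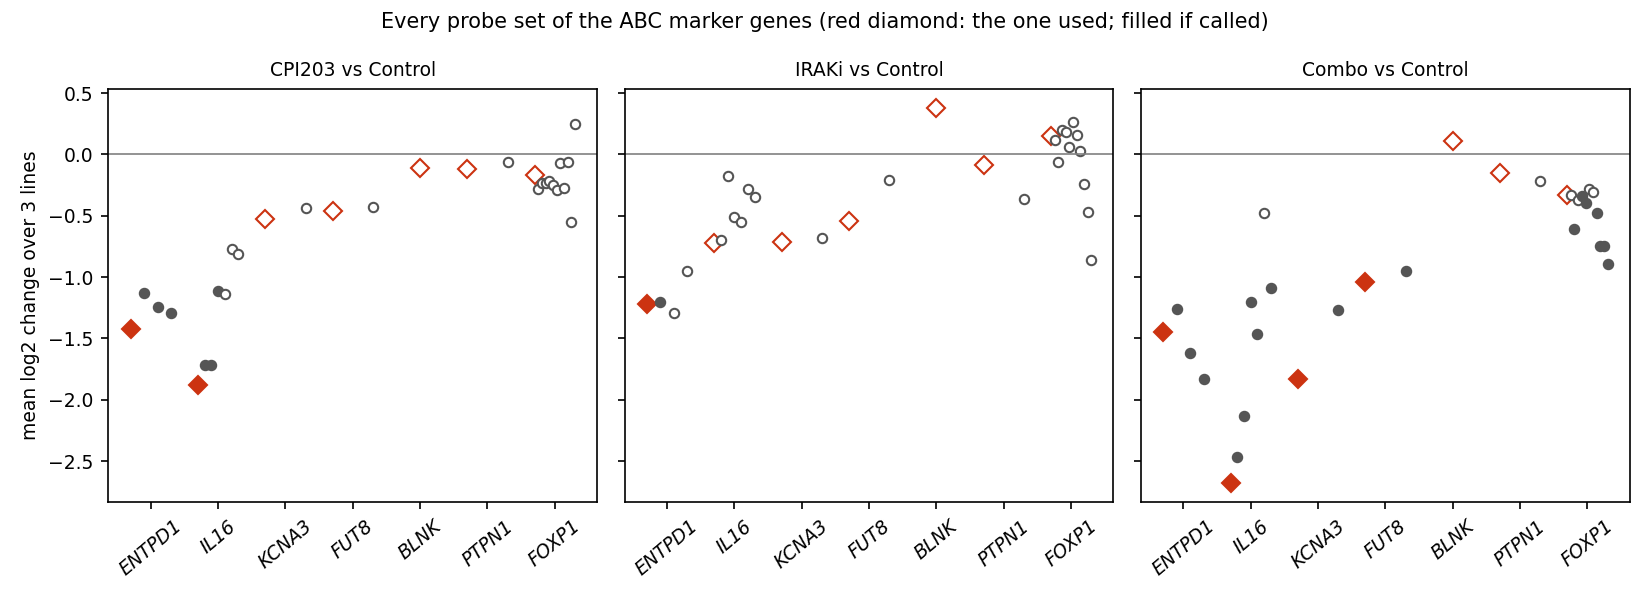
Mean log2 change over the 3 lines of every 1-gene probe set that passed the filter, for CPI203, IRAKi and Combo against Control; red diamonds are the probe sets used and filled symbols have adjusted p under 0.05. The 4 ENTPD1 probe sets lie between -1.42 and -1.13 with CPI203, and all 12 FOXP1 probe sets lie below zero with Combo.

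Differences between the lines were larger than those between treatments for most markers. The line contrasts use 4 arrays of each line under 4 treatments, which are not independent cultures of 1 condition. On the probe sets used, 6 of the 7 markers were called in each of the 3 contrasts, FOXP1 being the exception. Of all genes 47.2% were called for OCI-LY3 against OCI-HBL1, 48.5% for OCI-LY10 against OCI-HBL1 and 46.6% for OCI-LY3 against OCI-LY10.

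IL16 was 3.73 ± 0.29 higher in OCI-LY3 than in OCI-HBL1 (log2, a 13.2-fold difference, adjusted p = 5.5e-06) and 2.16 ± 0.29 higher in OCI-LY10 than in OCI-HBL1 (adjusted p = 1.8e-04). KCNA3 was likewise low in OCI-HBL1, by 2.13 ± 0.15 against OCI-LY3 (adjusted p = 3.2e-06) and 2.93 ± 0.15 against OCI-LY10 (adjusted p = 3.3e-07). PTPN1 followed the order of IL16, 2.01 ± 0.14 higher in OCI-LY3 (adjusted p = 2.6e-06) and 1.1 ± 0.14 higher in OCI-LY10 than in OCI-HBL1 (adjusted p = 1.3e-04). FUT8 and ENTPD1 ran the other way, with OCI-HBL1 the highest line. FUT8 in OCI-LY3 was -2.65 ± 0.12 from OCI-HBL1 (adjusted p = 1.8e-07), and ENTPD1 was -0.94 ± 0.13 (adjusted p = 2.5e-04). BLNK was highest in OCI-LY10, 1.14 ± 0.13 above OCI-HBL1 (adjusted p = 6.2e-05) and with OCI-LY3 -1.59 ± 0.13 from OCI-LY10 (adjusted p = 8.3e-06). The FOXP1 probe set used differed between lines by at most 0.17 ± 0.10 (OCI-LY10 against OCI-HBL1, 95% interval -0.05 to 0.40, adjusted p = 0.19). With its probe set of lowest p taken instead, FOXP1 was called in that contrast at 0.30 (limma adjusted p = 0.024). OCI-LY3 against OCI-LY10 was then called as well, at -0.70 (adjusted p = 0.0091).

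The closest neighbours in these orders were OCI-LY3 and OCI-LY10 for ENTPD1 (-0.40 ± 0.13, adjusted p = 0.029) and OCI-LY3 and OCI-HBL1 for BLNK (-0.45 ± 0.13, adjusted p = 0.017). Both calls were lost in limma fits that left out the Control arrays (adjusted p = 0.092 and 0.1), the IRAKi arrays (0.068 and 0.066) or the treatment term (0.54 and 0.076). That of ENTPD1 was also lost without the CPI203 arrays (0.12) and with poly-A scaling (0.31). In all, 6 of 16 alternatives ended the call for ENTPD1 and 4 of 16 that for BLNK. KCNA3 in OCI-LY3 against OCI-LY10, -0.80 ± 0.15 (adjusted p = 0.0018), shrank to -0.09 (adjusted p = 0.75) in the mean of its probe sets.

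How the variation of each marker divides is a description of these 12 arrays. Treatment held 68.5% of the sum of squares of ENTPD1 and 74.1% of that of FOXP1, and 6.96% and 4.57% of all genes had a higher share. Cell line held most for PTPN1 (96.5%), BLNK (89.8%), FUT8 (88.9%), KCNA3 (76.4%) and IL16 (66.1%). The median gene had 53.3% for line and 21.5% for treatment. FOXP1 reached its treatment share with small changes, since the lines barely differed on the probe set used.

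**Figure D4:**
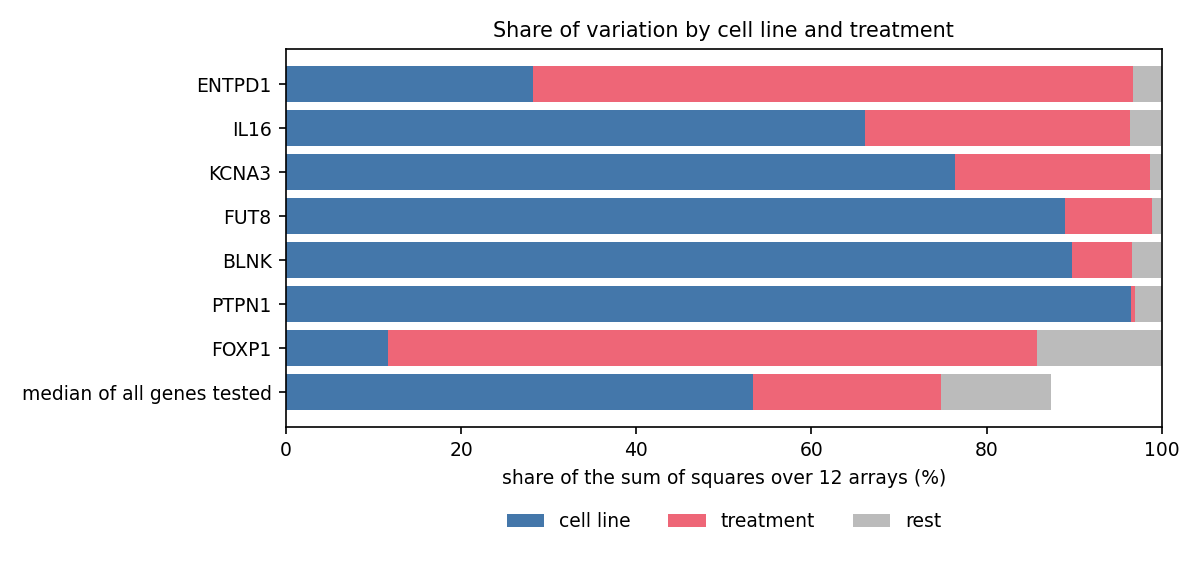
Share of the sum of squares over the 12 arrays (%) that cell line, treatment and the rest hold for each of the 7 markers, and the medians of the same shares over all genes tested, which need not add to 100. The treatment bar is longest for FOXP1 (74.1%) and shortest for PTPN1 (0.468%).

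With the mean of each line taken off, the highest correlation between markers over the 12 arrays was that of KCNA3 and FUT8 (r = 0.92). The 6 pairs among ENTPD1, IL16, KCNA3 and FUT8 lay between 0.69 and 0.92, which restates on the same arrays that these 4 fell with Combo. IL16 and FOXP1 (r = 0.78) lay in that range too. BLNK stood apart, with r between -0.41 (PTPN1) and 0.44 (FOXP1). These are descriptions over arrays that share lines and treatments, and no p is given.

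Outside the 7, the tested gene whose line-centred pattern was most like ENTPD1 was ASXL1 (r = 0.951), whose values were -0.62, -0.70 and -0.69 with CPI203, IRAKi and Combo, the same near-equal steps at a smaller size. DNAAF5 came nearest to IL16 (r = 0.991), at -0.96, -0.26 and -1.23. SRSF8, a splicing factor gene, came nearest to KCNA3 (r = 0.989), at -0.39, -0.61 and -1.50. SLC2A6, a sugar transporter gene, came nearest to FUT8 (r = 0.974), at -0.72, -0.69 and -1.57, and MBTPS2 to FOXP1 (r = 0.947), at -0.32, 0.33 and -0.92. For BLNK it was CCDC28A (r = 0.924) and for PTPN1 KLHL22 (r = 0.903), followed by STAT3 (r = 0.885). Each was picked as the highest over 12 arrays among all genes tested.

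Most of the other genes used to mark the ABC subtype fell with Combo. Of 24 tested 14 fell and 1 rose (16.7% and 15.4% of all genes), with a median change of -0.83. This list and those below were chosen with earlier results of these data known, so their counts beside all genes are a description. The largest drops were those of BMF, a BH3-only death gene (-2.44 ± 0.15, adjusted p = 2.5e-05), the transcription factor genes BATF (-2.13 ± 0.28, adjusted p = 5.3e-04) and SPIB (-2.13 ± 0.59, adjusted p = 0.02), and CFLAR, an inhibitor of caspase-8 (-1.27 ± 0.21, adjusted p = 0.0017). SPIB differed among lines, at -4.50 in OCI-LY3 but -1.23 in OCI-HBL1 and -0.65 in OCI-LY10. BCL2A1, an anti-apoptotic gene, was the one that rose (0.58 ± 0.17, adjusted p = 0.026). IRF4 (-0.35 ± 0.26, adjusted p = 0.35) and STAT3 (-0.14 ± 0.23, adjusted p = 0.68) did not pass. CPI203 lowered 4 of the 24 (BATF, BMF, ETV6 and TNFRSF13B) and IRAKi 1 (BMF), beside 6.21% and 0.0534% of all genes. The CPI203 count was 0, 3 and 1 without OCI-LY3, OCI-HBL1 or OCI-LY10, and the IRAKi call was lost without any line, without the OCI-LY10 IRAKi array, in the mean of probe sets and with only the 2 groups compared. Leaving out a line left 8 of the 24 lower with Combo (no OCI-LY3), 13 (no OCI-HBL1) or 10 (no OCI-LY10), and BCL2A1 passed in the first of these alone. With only the 2 groups compared 9 were lower with Combo, and with at least 2-fold required 8 were, where 16.5% and 9.48% of all genes were called. With poly-A scaling 20 were lower and none higher, where 46.9% of all genes were called with Combo, 91.7% of those lower.

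Genes of the GCB subtype went both ways. Of 16 tested 5 fell and 2 rose with Combo, with a median of -0.31, beside 16.7% and 15.4% of all genes. LMO2, a transcriptional adaptor, rose by 3.50 ± 0.37 (adjusted p = 2.3e-04) from a Control mean of 3.65, under the filter level, so the size of that rise depends on a low starting signal. MYBL1 rose by 1.86 ± 0.39 (adjusted p = 0.0056). GCSAM (-1.27 ± 0.37, adjusted p = 0.028), RGS13 (-1.19 ± 0.28, adjusted p = 0.01) and ITPKB (-1.13 ± 0.22, adjusted p = 0.0038) fell. With CPI203 1 rose (LMO2) and 1 fell (ITPKB), beside 6.92% and 6.21% of all genes, and with IRAKi none was called. With CPI203 the fall was lost without any line and the rise without OCI-LY3. Leaving out OCI-LY3 left 2 lower and 1 higher with Combo, and leaving out OCI-LY10 left 1 and 1. Poly-A scaling gave 10 lower and 2 higher, where 46.9% of all genes were called, 91.7% of those lower. Of 5 housekeeping genes of a cell-of-origin assay 1, TRIM56 (-0.53 ± 0.14, adjusted p = 0.02), fell with Combo, though not without OCI-LY3 or OCI-HBL1, and their median was -0.10.

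**Figure D5:**
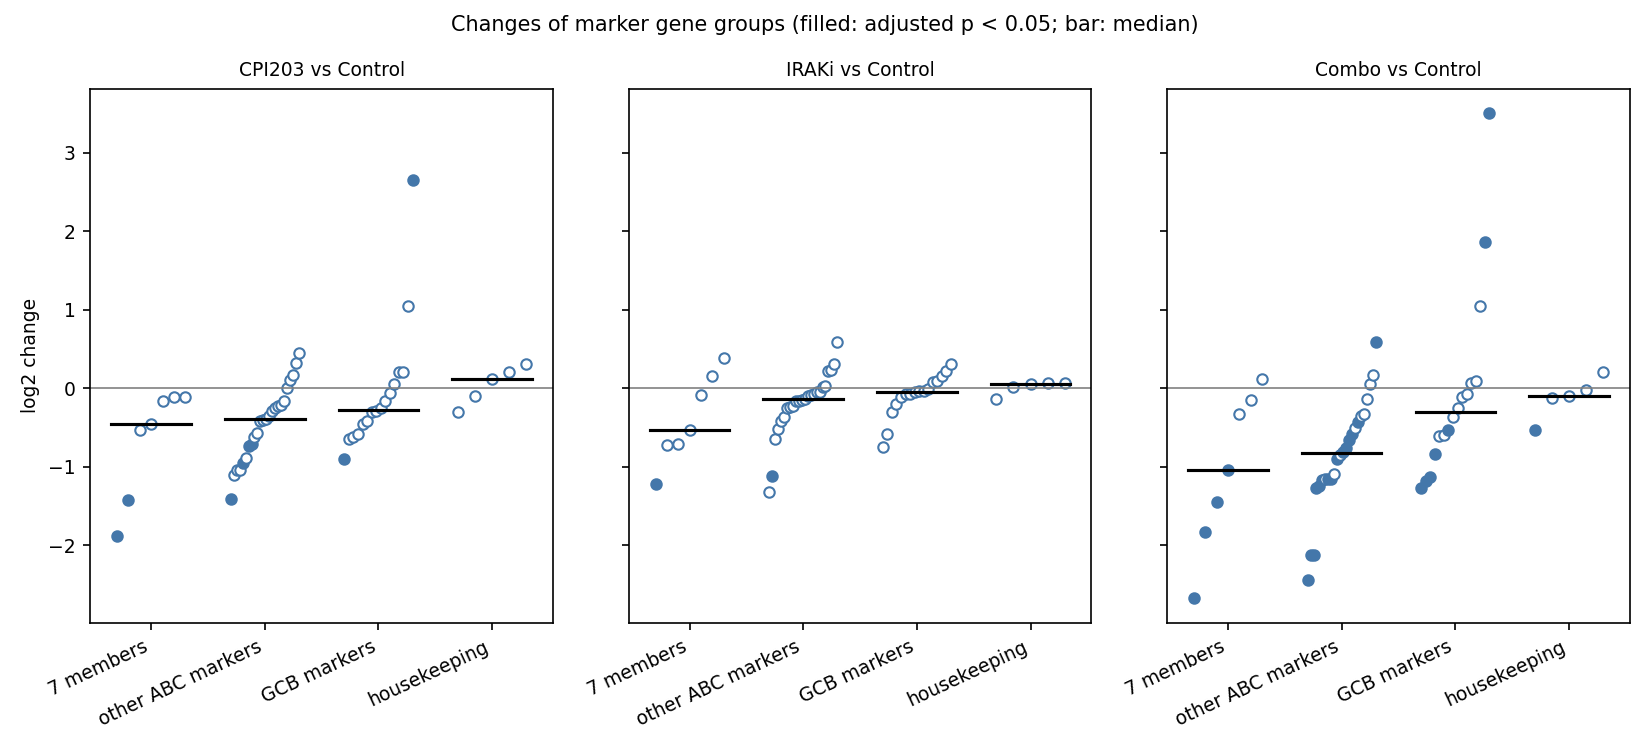
Log2 change of the 7 markers (labelled members), the other ABC markers (24 tested), the GCB markers (16) and the housekeeping genes (5) for each treatment against Control, with 1 point for each gene, filled where adjusted p is under 0.05, and a bar at the median. With Combo the medians are -1.04, -0.83, -0.31 and -0.10.

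Genes that work beside each marker changed in part. Around ENTPD1, 3 of 7 tested genes of extracellular nucleotide handling fell with Combo, where 16.7% of all genes did, and none rose. They were SLC29A1, which carries nucleosides across the membrane (-0.87 ± 0.19, adjusted p = 0.0062), P2RX5, an ATP-gated channel (-0.78 ± 0.25, adjusted p = 0.041), and ADA, which degrades adenosine (-0.77 ± 0.17, adjusted p = 0.0063). NT5E (CD73), the enzyme that makes adenosine after ENTPD1, was below the filter level on all arrays (3.31 to 3.68). With CPI203 1 of the 7 fell, P2RY8, at -0.58, -0.91 and -3.85 by line, where 6.21% of all genes fell. With IRAKi none was called. The P2RY8 call was lost without any 1 of the lines, with line as a random block, with trend and robust estimation and without the OCI-LY10 IRAKi array. It was also lost in the mean of probe sets, with only the 2 groups compared and with no replicate block. With OCI-LY3 or OCI-LY10 left out 1 of the 7 was called lower with Combo, and with OCI-HBL1 left out 2 were.

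Around KCNA3, 3 of 7 potassium channel and calcium entry genes fell with CPI203 and with Combo (6.21% and 16.7% of all genes), and STIM2 rose with Combo (0.58 ± 0.13, adjusted p = 0.0065). With Combo ORAI2, a calcium channel subunit, fell by 1.95 ± 0.26 (adjusted p = 6.4e-04), KCNN4, the calcium-activated potassium channel of lymphocytes, by 1.75 ± 0.29 (adjusted p = 0.0017), and KCNAB2, a beta subunit of Kv1 channels, by 0.71 ± 0.17 (adjusted p = 0.011). ORAI1 (0.44 ± 0.22, adjusted p = 0.17) and STIM1 (-0.29 ± 0.12, adjusted p = 0.1) did not pass, and the rise of STIM2 was lost without OCI-LY3. With CPI203 the count of 3 went to 0 without any 1 of the lines and with line as a random block.

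Around FUT8, 2 of 7 core fucosylation genes were called with Combo, a share no higher than the 32.1% of all genes. Both fell, FCSK of the salvage route to GDP-fucose (-0.73 ± 0.21, adjusted p = 0.026) and MGAT1, which opens the way to complex N-glycans (-0.49 ± 0.13, adjusted p = 0.018). Another 2, FPGT (-0.70 ± 0.15, adjusted p = 0.018) and GMDS (-0.76 ± 0.20, adjusted p = 0.038), fell with CPI203, where 6.21% of all genes did. That count was 0, 1 and 0 without OCI-LY3, OCI-HBL1 or OCI-LY10. The list's medians were -0.21 with CPI203 and -0.22 with Combo, and without OCI-LY3 or OCI-LY10 none of the 7 was called with Combo (without OCI-HBL1, 1). The Golgi transporter of GDP-fucose, SLC35C1, had -0.03 ± 0.19 with Combo (adjusted p = 0.94).

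Around BLNK, which did not pass, 3 of 11 tested genes of B cell receptor signalling fell with Combo and 1 rose, a share called near the 32.1% of all genes. The receptor subunit gene CD79B had -1.39 ± 0.21 (adjusted p = 0.0012), the kinase gene SYK -1.08 ± 0.15 (adjusted p = 7.0e-04) and the kinase gene BTK -0.78 ± 0.16 (adjusted p = 0.0054), while BCL10 rose (0.53 ± 0.14, adjusted p = 0.016). PLCG2, which BLNK joins to BTK, had -0.04 ± 0.12 (adjusted p = 0.82). SYK alone fell with CPI203, where 6.21% of all genes did. The SYK call was lost without any 1 of the lines and with line as a random block, and none was called with IRAKi. The list's median with Combo was -0.04, and the rise of BCL10 was lost without OCI-LY3 or OCI-LY10.

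Around PTPN1, 2 of 10 genes of JAK-STAT signalling fell with Combo and 1 rose, again a share near the 32.1% of all genes. They were PTPN6 (SHP-1), a phosphatase of blood cells (-1.53 ± 0.32, adjusted p = 0.0052), STAT6 (-1.01 ± 0.19, adjusted p = 0.0027) and, rising, the inhibitor gene SOCS1 (0.56 ± 0.18, adjusted p = 0.042). PTPN2, the closest relative of PTPN1, had -0.33 ± 0.23 (adjusted p = 0.31). Neither agent alone gave a call in this list, and the Combo call of SOCS1 was lost without any 1 of the lines, which left 1 gene lower without OCI-LY3 or OCI-HBL1.

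Around FOXP1, FOXP2 and FOXP4 did not pass with Combo (-0.06 ± 0.17 and -0.07 ± 0.17), and FOXP3 was under the filter. FOXO1, another forkhead gene of B cells, rose with CPI203 (0.45 ± 0.12, adjusted p = 0.038) and with Combo (0.47 ± 0.12, adjusted p = 0.015). The CPI203 call was lost without any 1 of the lines, with line as a random block or no replicate block and with only the 2 groups compared. It was also lost in the mean of probe sets, with poly-A scaling and without the OCI-LY10 IRAKi array. The Combo value of FOXO1 turned to -0.02 with poly-A scaling. Its Combo call was also lost without OCI-LY3 or OCI-LY10, with line as a random block or no replicate block and with only the 2 groups compared. Around IL16, its receptor gene CD4 (-0.07 ± 0.10 with Combo, adjusted p = 0.66) and CD9 (0.09 ± 0.46, adjusted p = 0.91) did not pass. CD4 lay near the filter level (4.03 to 4.41, above it on 3 arrays), and CD9 was above that level on 8 (3.69 to 6.16). Their changes are therefore limited by low signal. In all these lists BMF was the single call with IRAKi alone, and was lost as described for it. The rises of STIM2, BCL10 and SOCS1 with Combo were also lost with poly-A scaling.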

How the data were processed

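RNA of 12 cultures (3 lines, 4 treatments, 1 Affymetrix array each, labelled from 150 ng) was measured. The authors deposited log2 values made with RMA in Affymetrix Expression Console 1.1, per the submitters' processing notes. RMA subtracts background, quantile-normalizes arrays and summarises probes, which can compress low signals and hides shifts shared by all genes. The genome build behind the probe sets is not given in the sources used here. Of 49386 probe sets 45253 carry 1 gene in the platform annotation, 1327 several, 2713 no named gene and 93 are controls. The 1-gene kind was used, and 99.82% of gene IDs matched the reference table. A gene took its probe set with the highest mean. Genes were tested whose probe set exceeded the 40th percentile of all values (log2 4.20) in at least 3 arrays.

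Treatment and cell line were fitted to all 12 arrays with limma 3.58.1 in R 4.3.3 (lmFit, contrasts.fit, eBayes, 6 residual degrees of freedom, prior 3.66), read with data.table (1.17.8). Figures and sequence searches used Python 3.11.15. Tests were two-sided, adjusted by Benjamini-Hochberg over all genes tested. Errors are moderated SE unless SD is named, and precision is limited by the number of arrays. The script was tested on simulated data. The replicate is the cell line, shared by the groups, so the line term pairs the arrays. Deviations from group means correlated at 0.82 to 0.91 within a line and at -0.55 to -0.35 between lines. Deviations from a mean of 3 arrays sum to zero, so the negative values between lines follow from the calculation.

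The members and lists were chosen with earlier results of these data known. Named were the 7 markers, up to 4 called genes of each list with the largest change in a comparison, list genes for their role beside a marker, and the 3 genes nearest to each marker by correlation, of which the nearest is printed as a rule. Alternatives are given in the closing section.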

Additional observations from a re-analysis of the deposited data

Results flagged for a closer look

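In some comparisons the lines moved in opposite directions. Each value is 1 array against 1 array, and the differences between lines were not tested. Values are log2 changes, given for OCI-LY3 first, then OCI-HBL1, then OCI-LY10.

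PTPN1 had this pattern most often. It read -0.43, 0.23 and -0.17 with CPI203 against Control and -0.37, 0.26 and -0.35 with Combo against Control. Combo against CPI203 gave 0.07, 0.04 and -0.19. Combo against IRAKi gave -0.24, 0.36 and -0.32, and CPI203 against IRAKi gave -0.30, 0.33 and -0.13. In 4 of these 5 comparisons OCI-HBL1 was the line above zero while the others were below it.

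BLNK, the receptor adaptor, read 0.15, -0.53 and 0.05 with CPI203 and 0.47, -0.27 and 0.14 with Combo against Control, with OCI-HBL1 again the odd line. FOXP1 read 0.38, -0.10 and 0.18 with IRAKi against Control. IL16 read -1.43, 0.12 and -1.09 in Combo against CPI203, where OCI-HBL1 started from a level near 5.35. ENTPD1 read 0.28, -0.17 and -0.22 in Combo against CPI203, and FUT8 read 0.15, -0.08 and 0.19 in CPI203 against IRAKi. None of these mean changes was called.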

How the results depend on the processing

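The 4 markers that fell with Combo (ENTPD1, IL16, KCNA3 and FUT8) were called lower in 16 of 17 alternatives each, the exception being the fit with no replicate block. Cell line is that block, and without it the line differences stay in the spread. Then 0 members were called in CPI203, IRAKi or Combo against Control, in Combo against CPI203 and in Combo against IRAKi. In the same order that fit called 4, 0, 465, 2 and 7 of all 13120 genes. Over all markers and treatment comparisons 732 of 826 alternative values kept direction and side of the threshold, 38 lost a call, 27 gained one and 29 turned sign. A fit of only the 2 groups compared gives no interaction term. For the line comparisons it was 308 of 336, with 20 lost, 3 gained and 5 turned.

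Counts of members called moved as follows, and the causes were not tested unless the alternative itself shows them. CPI203 against Control had 4 with poly-A spike-in scaling and with array weights and 1 to 2 leaving out a line. Of all genes 13.4%, 19.1% and 1.65% to 5.49% were called in those fits, against 13.1% as reported. IRAKi against Control had 0 with only the 2 groups compared, 0 leaving out any line and 0 without the OCI-LY10 IRAKi array. In each of those fits 0 of all genes were called. Combo against CPI203 had 2 with every probe set counted, a filter at the 60th percentile, median centring, trend and robust estimation, and array weights. Those settings called 3.4% of all probe sets and 8.83%, 5.19%, 7.27% and 6.14% of all genes, against 4.66% as reported. It had 0 with line as a random block (3.55% of all genes). It also had 0 without OCI-LY3, OCI-HBL1 or OCI-LY10, where 0, 3 and 0 of all genes were called. Combo against IRAKi had 2 with only the 2 groups compared, at least 2-fold changes required, line as a random block or the OCI-LY10 IRAKi array left out. Of all genes 7.45%, 4.29%, 15.9% and 11.3% were then called, against 18.7% as reported. Leaving out a line it had 1 to 3, with 4.01% to 13% of all genes called. CPI203 against IRAKi had 2 with every probe set, trend and robust estimation, and array weights, and 1 with only the 2 groups compared. Those settings called 5.25% of all probe sets and 8.53%, 9.01% and 1.39% of all genes, against 5.74% as reported. OCI-LY3 against OCI-LY10 had 3 when at least 2-fold was required and 3 with treatment left out. Of all genes 15% and 32.8% were called there, against 46.6% as reported.

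Signs turned only for changes not called as reported. Averaging the probe sets of each gene, FOXP1 in IRAKi against Control was -0.04, PTPN1 was 0.04 in Combo against IRAKi and 0.13 in CPI203 against IRAKi, FUT8 was -0.07 in CPI203 against IRAKi and the IL16 interaction term was 0.10. With every probe set, where the one with the lowest p stands for a gene, FOXP1 was 1.11 in CPI203 against IRAKi (adjusted p = 0.018, the one turned value that was called), -0.86 in IRAKi against Control and -0.21 in OCI-LY3 against OCI-HBL1, PTPN1 was 0.30 and 0.15 in CPI203 and Combo against IRAKi, FUT8 was -0.22 in CPI203 against IRAKi and the IL16 interaction term was 0.58. With poly-A scaling FOXP1 was -0.08 with IRAKi, and -0.08, -0.12 and 0.04 in OCI-LY3 against OCI-HBL1, OCI-LY10 against OCI-HBL1 and OCI-LY3 against OCI-LY10, BLNK was -0.37 with Combo and the FUT8 interaction term was 0.01.

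Leaving out 1 line, 1 array or the arrays of 1 treatment, turned values ranged as follows. PTPN1 ran from -0.30 to 0.03 in CPI203 against Control, from -0.28 to 0.06 in Combo against IRAKi, from -0.22 to 0.10 in CPI203 against IRAKi, from -0.08 to 0.05 in Combo against CPI203 and from -0.01 to 0.17 for the interaction term. BLNK ran from -0.24 to 0.10 with CPI203 and from -0.06 to 0.31 with Combo. ENTPD1 ran from -0.20 to 0.06 in Combo against CPI203. The interaction term ran from -0.39 to 0.30 for IL16 and from -0.09 to 0.00 for FUT8, and FOXP1 in OCI-LY3 against OCI-HBL1 from -0.03 to 0.13.

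The number of arrays limits all of this. Quantile normalization assumes that most genes keep their level, and poly-A scaling moves the median Combo change to -0.49. KCNA3 in OCI-HBL1 is near the filter level, so its change there is limited by background signal. The vehicle of the Control and the labelled time of IRAKi alone are further limits of the design.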

Other observations

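Of the probe sets annotated to FOXP1, 5 are shared with NSG1 and entered no comparison. Their mean levels lay between 4.00 and 5.06, and their changes with Combo against Control lay between -0.31 and 0.14, where all 12 probe sets of FOXP1 alone were lower. The remaining IL16 probe set, above the filter level on 1 array, read 0.11 with Combo and 0.25 with CPI203.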
